A study of Mus musculus with 10 samples.

Results

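The DBA/2J (D2) strain carries a set of classic inherited mutations that alter its coat color, eyes, hearing and complement system, and the 6 genes that hold them were examined in the nucleus accumbens (NAc) of D2 and C57BL/6J (B6) mice. The genes were Myo5a, Gpnmb, Tyrp1, Cdh23, Fscn2 and Hc, chosen by name for these mutations. All 6 were found among the 29883 genes of the count table by their Ensembl identifiers. The NAc is a reward region at the base of the striatum, and it was taken from 5 B6 and 5 D2 male mice that had never received ethanol, at 9 weeks of age, and 1 poly-A RNA library was sequenced per mouse. Both are inbred strains without any transgene or treatment, so that the whole genetic background differed between the groups and a difference in counts cannot be assigned to the mutation of a gene.

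Each of these genes is known for a role outside the brain. Tyrp1, Gpnmb and Myo5a act in pigment cells: Tyrp1 is an enzyme of melanin synthesis in the melanosome, Gpnmb is a glycoprotein of melanosomes and of the lysosomes of phagocytes, and Myo5a is the actin motor that carries melanosomes, and in neurons carries organelles into dendritic spines. D2 mice owe their brown color to a missense allele of Tyrp1 and their dilute color to a retroviral insertion in an intron of Myo5a, and a premature stop codon in Gpnmb, together with the Tyrp1 allele, gives the strain a pigmentary glaucoma. Cdh23 forms part of the tip links of hair cell stereocilia and Fscn2 bundles the actin inside them. The Cdh23 allele for age-related hearing loss, a silent base change that alters splicing, is carried by both B6 and D2 mice, while the missense allele of Fscn2 is a D2 allele. Hc encodes complement C5, which D2 mice lack in serum because a small deletion shifts the reading frame.

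The libraries held 96977262 to 116776714 counted reads each. The labelled tissue was checked with 10 genes of striatal projection neurons, all of which were counted, with a summed level from 415936 to 551896 normalized counts in B6 and from 358402 to 434158 in D2 mice, and 6 of the 10 were called lower in D2. B6 replicates 3 and 5 stood apart from the other B6 libraries. The summed level of 7 markers of cortical projection neurons was 106960 and 108362 normalized counts in these libraries, but between 9684 and 19513 in the other B6 mice and between 25601 and 67714 in D2 mice. Values without this pair are therefore given below for Gpnmb, Myo5a, Hc, the lists and those of the other named genes whose call or direction changed without it or whose value moved most. The striatal markers were lowest among B6 mice in this pair, at 418292 and 415936, and the other B6 mice had 479759 to 551896. Without this pair, every D2 mouse has a higher cortical and a lower striatal marker level than every B6 mouse. These levels and strain cannot be told apart in the fits without the pair. Normalized counts are raw counts scaled by TMM factors to the mean library. Genes were called at a Benjamini-Hochberg adjusted p under 0.05 in the edgeR quasi-likelihood test over all genes. With all mice 5478 of the 29883 genes were called, and without B6 replicates 3 and 5 the number was 5745.

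The promoters of Gpnmb, Tyrp1 and Hc are shown because Gpnmb and Hc are the members whose counts differed between the strains, and Tyrp1 shares the melanosome with Gpnmb. Each is the run of 250 bases before the start of the canonical transcript in GRCm39, read 5′ to 3′ on the strand of the gene. The genome is that of B6, and D2 bases were not read here. The sequences cover chr6:49013176-49013425 on the plus strand, chr4:80752192-80752441 on the plus strand and chr2:34951451-34951700 on the minus strand. Capitals mark the 6-base motif CATGTG, on either strand, which is the core of the M-box that the pigment cell factor Mitf binds.
Gpnmb: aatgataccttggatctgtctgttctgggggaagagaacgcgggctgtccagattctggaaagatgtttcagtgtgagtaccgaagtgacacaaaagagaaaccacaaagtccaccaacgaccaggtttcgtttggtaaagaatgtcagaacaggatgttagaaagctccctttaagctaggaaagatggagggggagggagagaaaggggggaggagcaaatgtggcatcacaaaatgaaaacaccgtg
Tyrp1: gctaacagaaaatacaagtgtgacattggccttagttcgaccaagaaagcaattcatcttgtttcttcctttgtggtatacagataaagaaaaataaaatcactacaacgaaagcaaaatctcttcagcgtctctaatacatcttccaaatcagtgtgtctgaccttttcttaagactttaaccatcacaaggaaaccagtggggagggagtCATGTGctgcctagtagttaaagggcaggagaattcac
Hc: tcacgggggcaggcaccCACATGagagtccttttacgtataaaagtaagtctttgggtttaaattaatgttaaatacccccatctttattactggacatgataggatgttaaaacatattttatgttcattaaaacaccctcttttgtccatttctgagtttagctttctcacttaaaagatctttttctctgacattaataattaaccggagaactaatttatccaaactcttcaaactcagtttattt

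The motif began 38 bases before the start of the canonical transcript of Tyrp1 and 233 bases before that of Hc. For Tyrp1 this position lies inside the annotated gene, which starts further 5′ than that transcript. These letters were not in the Gpnmb window. The windows of Myo5a and, at its last bases, Hc also overlap the annotated gene, and that of Cdh23 lies wholly inside it. The motif was also present in the Cdh23 window and not in those of Myo5a and Fscn2. Of 17318 promoters of protein-coding genes in the table, 8.86% held it in a window of the same length. The related motif CACGTG, which does not overlap with it, was in none of the 6 windows and in 7.17% of all promoters. A match of letters is a description and does not show binding.

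In the comparison of the strains, Gpnmb was lower and Hc was higher in D2 mice. The other 4 genes did not pass the test. For comparison, 18.3% of all genes were called in the same fit, 9.83% as lower and 8.50% as higher in D2, so that 2 of 6 members is a count that can only be read gene by gene. The counts of Gpnmb did not overlap between the strains, as was the case for 16.0% of all genes. Those of the other members overlapped.

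**Figure D1:**
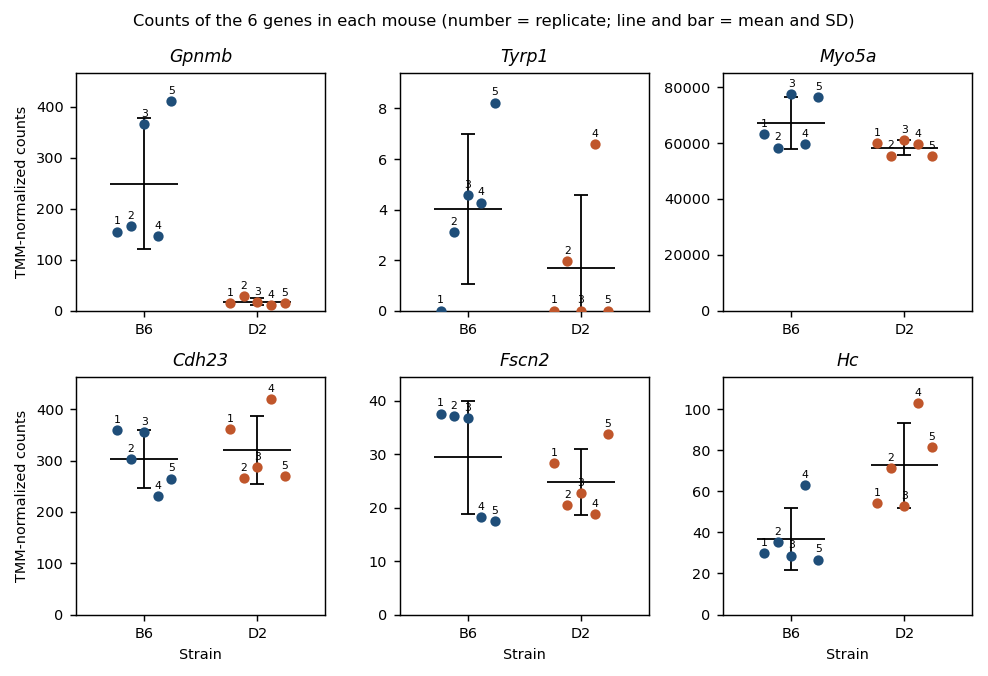
TMM-normalized counts (y axis, from 0) of the 6 genes in 5 B6 mice (blue) and 5 D2 mice (orange), with points numbered by replicate, lines at the mean and bars of 1 SD (cut at 0 for Tyrp1). The D2 mice lie between 11.3 and 29.3 for Gpnmb, below every B6 mouse, while Hc is higher in D2 with B6 replicate 4 among the D2 values.

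Gpnmb (ENSMUSG00000029816) is on the plus strand of chromosome 6 in GRCm39 (49013426 to 49047863). B6 replicates 1 to 5 had 155, 166, 366, 146 and 411 normalized counts. D2 replicates 1 to 5 had 14.7, 29.3, 17.0, 11.3 and 15.3. The lowest B6 mouse was thus far above the highest D2 mouse, and within B6 replicates 3 and 5 were well above the rest. B6 mice averaged 249 ± 129 (SD, n = 5) and D2 mice 17.5 ± 6.91 (SD, n = 5), and the raw reads summed to 1178 and 91. Expressed as D2 over B6, the log2 fold change was -3.82 with a standard error of 0.38, a 14.1-fold lower level in D2 (edgeR with Benjamini-Hochberg adjustment, adjusted p = 1.1e-05). A two-sided exact permutation test over all assignments of 5 and 5 mice gave p = 0.0079, the smallest it can give. Reads were still found in every D2 mouse, with 12 as the lowest raw count.

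The high Gpnmb values of B6 replicates 3 and 5 were those of the libraries with the high cortical markers. Among B6 mice, this pair also had the highest sums of 7 oligodendrocyte markers, at 687604 and 683923 against 476839 to 572508. Its 5 choroid plexus markers summed to 2017 and 2127, against 4092 to 4241 in the other B6 mice. Without this pair the 3 other B6 mice lay between 146 and 166 normalized counts, and the level in D2 was 8.89-fold lower (log2 fold change -3.15, standard error 0.231, edgeR adjusted p = 9.8e-07). With the cortical marker level as a covariate the log2 fold change was -3.96. The parts of cortical tissue and of the oligodendrocyte and choroid plexus differences in the spread among B6 mice were not tested. Of 6 melanocyte markers, which include Tyr, Dct and Pmel, 5 were in the table, and their summed level was 99.7 to 116.2 normalized counts in B6 and 115.6 to 168.2 in D2, with Slc45a2 and Mc1r under a mean of 10 counts and Mlana not in the table. Of the 5, 1 was called, and it was higher in D2. The 8 microglia markers summed to between 34167 and 37914 in B6 and between 30761 and 36670 in D2, so that these ranges overlapped. Perivascular macrophage markers ranged from 582 to 741 in B6 and from 641 to 800 in D2. In bulk tissue, fewer cells of a type and less RNA per cell cannot be told apart.

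**Figure D2:**
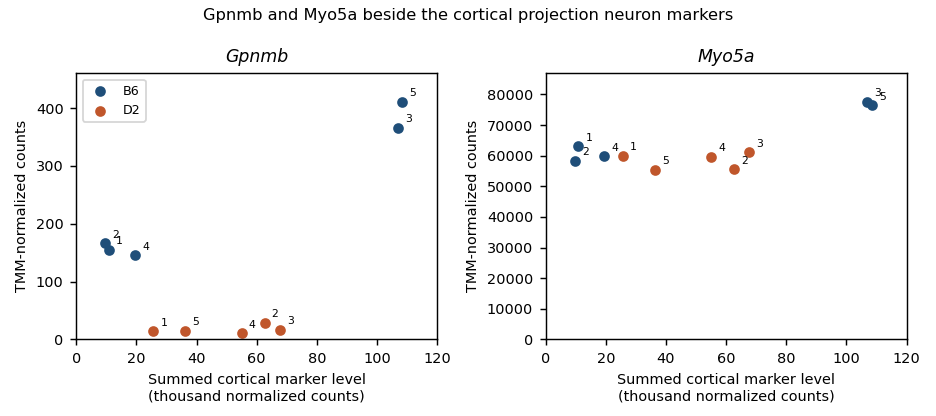
TMM-normalized counts of Gpnmb and Myo5a (y axes, from 0) against the summed level of 7 cortical projection neuron markers (x axis, normalized counts in units of 1000) in each numbered B6 (blue) and D2 (orange) mouse. B6 replicates 3 and 5 are highest on both axes, and for Gpnmb the D2 mice stay under 30 at every marker level.

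Tyrp1 (ENSMUSG00000005994; chromosome 4, 80752360 to 80769956, plus strand) was close to the limit of detection. The raw counts were 0, 3, 4, 4 and 8 in B6 replicates 1 to 5 and 0, 2, 0, 7 and 0 in D2 replicates 1 to 5. A count of 0 was seen in 4 libraries, and each allows up to 3 counts. With 19 reads in all B6 and 9 in all D2 mice, no fold change is given, and a strain difference was not detectable at this depth (edgeR adjusted p = 0.495). Of the relatives of Tyrp1 in melanin synthesis, Tyr had 24.1 ± 7.64 (SD, n = 5) normalized counts in B6 mice and 23.5 ± 5.84 in D2 mice, and Pmel, the fibril protein of the melanosome, had 41.7 ± 11.4 and 48.0 ± 7.24. Neither was called. The log2 fold change of Tyr was -0.04 with all mice and -0.24 without B6 replicates 3 and 5. Dct, the third enzyme of the family, was called higher in D2, with 26.7 to 53.9 in B6 and 49.5 to 64.2 in D2, ranges which overlapped (log2 fold change 0.68, standard error 0.197, edgeR adjusted p = 0.030). Its call was lost with any of 7 of the mice left out, at an adjusted p of at most 0.0737, while without both B6 replicates 3 and 5 the log2 fold change was larger, at 0.98 (edgeR adjusted p = 0.0025). Mitf, the factor that switches on pigment genes, had 1293 ± 48.6 (SD, n = 5) normalized counts in B6 and 1309 ± 150 in D2 and was not called.

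The wider list of melanosome and pigment genes held 28 genes in the table, with 2 higher in D2, 3 lower and 23 that did not pass. This was a share of 17.9%, beside 18.3% of all genes, and the median log2 fold change was 0.03, beside 0.00 for all genes. Without B6 replicates 3 and 5 the count was 3. Hps1, a subunit of a complex that directs the formation of melanosomes and other lysosome-related organelles, was lower in every D2 mouse, at 2678 ± 107 (SD, n = 5) normalized counts against 3838 ± 134 in B6 (log2 fold change -0.52, standard error 0.0396, edgeR adjusted p = 9.5e-07). Hps4, its partner, fell by 0.15 on the log2 scale at an adjusted p of 0.032 in edgeR. This call was lost without B6 replicates 3 and 5 (adjusted p = 0.107) and in 6 of the 10 fits with a single mouse left out. Sox10 fell by 0.35 on the log2 scale. It is also a factor of oligodendrocytes, whose 7 markers summed to between 476839 and 687604 normalized counts in B6 and between 360132 and 526951 in D2, with 4 of the 7 called lower in D2. The highest B6 sums were those of replicates 3 and 5 (687604 and 683923), and the other B6 mice had 476839 to 572508. The part of oligodendrocytes in the Sox10 difference was not tested. Ednrb, the endothelin receptor of pigment cell precursors and astrocytes, was higher in D2 by 0.41 on the log2 scale at an adjusted p of 0.049 in edgeR, and at 0.161 without B6 replicates 3 and 5. This call was also lost in 8 of the 10 fits with a single mouse left out, at an adjusted p of at most 0.115.

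Around Gpnmb, 28 genes of phagocytes and lysosomes were listed and all were in the table. In D2, 6 were lower, 3 higher and 19 not called, a share of 32.1% beside 18.3% of all genes. Their median log2 fold change was -0.04, and 8 were called without B6 replicates 3 and 5. Tyrobp, the signaling adaptor of microglial receptors, had 1003 to 1244 normalized counts in B6 and 593 to 861 in D2 (log2 fold change -0.57, standard error 0.0957, edgeR adjusted p = 9.1e-04). Its receptor Trem2 fell by 0.29 on the log2 scale, and Hexa, a lysosomal hexosaminidase subunit, by 0.17. The called genes that were higher in D2 were Cd44, Clec7a and Lpl. Cd44, a hyaluronan receptor that Gpnmb is known to bind, rose from 253 ± 62.8 to 481 ± 53.0 normalized counts (SD, n = 5 each), and the strains did not overlap (log2 fold change 0.93, standard error 0.159, edgeR adjusted p = 0.0011), and the log2 fold change was 0.70 without B6 replicates 3 and 5. Clec7a, a receptor of phagocytes for fungal glucans, was counted at 15.9 ± 6.56 (SD, n = 5) in B6 mice and 34.3 ± 5.99 in D2 mice (edgeR adjusted p = 0.012).

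Myo5a (ENSMUSG00000034593) lies on chromosome 9 from 74978297 to 75130970, on the plus strand. It was by far the most abundant of the 6 genes. The normalized counts of B6 replicates 1 to 5 were 63099, 58355, 77615, 59744 and 76465. Those of D2 replicates 1 to 5 were 59993, 55557, 61121, 59606 and 55460. B6 replicates 3 and 5 were above all other mice, and the 3 other B6 mice lay within or just above the range of D2. The log2 fold change was -0.20 with a standard error of 0.0802, which did not pass the threshold (edgeR adjusted p = 0.111; two-sided exact permutation test, p = 0.0714). The value depended on the same pair of libraries. Without them it was -0.05 (adjusted p = 0.50 in edgeR), while with the cortical marker level as a covariate it was -0.25 and passed (edgeR adjusted p = 6.3e-04).

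**Figure D3:**
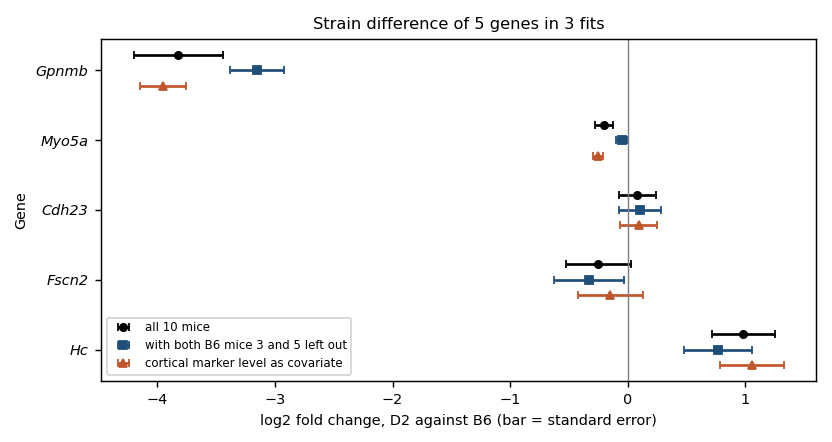
Log2 fold change, D2 over B6 (x axis, bars of 1 standard error) for Gpnmb, Myo5a, Cdh23, Fscn2 and Hc with all 10 mice (black), with both B6 replicates 3 and 5 left out (blue) and with the cortical marker level as a covariate (orange). Gpnmb stays at or below -3.15 in the 3 fits, and Myo5a lies between -0.25 and -0.05.

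Myosin Va works with adaptors that tie it to its cargo, and 21 genes of this group, with the related motors, were all in the table. Of these 3 were higher in D2, none lower and 18 not called, a share of 14.3% beside 18.3% of all genes, and 4 were called without B6 replicates 3 and 5. Myo5b, the sister motor of recycling endosomes, had 7121 to 7772 normalized counts in B6 and 8685 to 10425 in D2 (log2 fold change 0.35, standard error 0.0469, edgeR adjusted p = 1.4e-04). Myrip, which links Rab27a on vesicles to class V and VII myosins, rose by 0.32 and Rab11fip2, an adaptor between Rab11 and myosin Vb, by 0.13 on the log2 scale. The counts of these genes did not overlap between the strains, but the call of Rab11fip2 was lost in 5 of the 10 fits with a single mouse left out. Myo5c, which follows Myo5a on chromosome 9 at a distance of 8326 bases, had 345 ± 130 (SD, n = 5) normalized counts in B6 and 292 ± 50.4 in D2 and was not called (log2 fold change -0.24, and 0.21 without B6 replicates 3 and 5). Over the 10 mice, after the mean of each strain was taken out, the counts most like those of Myo5a were those of Spire1 (Pearson r = 0.994), an actin nucleator known to act with class V myosins, followed by Eif1ax (r = 0.985) and Epha5 (r = 0.984). For Gpnmb they were Brap (r = 0.973), ENSMUSG00000105352 (r = 0.971) and Rlbp1 (r = 0.964). For Cdh23 they were Dnajb14 (r = 0.935), Pdss2 (r = 0.931) and Camk2d (r = 0.928). Camk2d was called higher in D2 (log2 fold change 0.33, edgeR adjusted p = 0.0044), and Dnajb14 and Pdss2 were not called. These mice share the contrast of B6 replicates 3 and 5 with the rest, so that the correlations are given as a description.

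Cdh23 (ENSMUSG00000012819) lies on chromosome 10 from 60138527 to 60532269, on the minus strand. B6 replicates 1 to 5 had 359, 303, 356, 231 and 265 normalized counts, and D2 replicates 1 to 5 had 361, 266, 288, 419 and 269. The ranges overlapped almost fully. B6 mice averaged 303 ± 56.1 (SD, n = 5) and D2 mice 321 ± 67.3 (SD, n = 5), with a log2 fold change of 0.08 and a standard error of 0.157 (edgeR adjusted p = 0.793). The direction changed when single mice were left out, with values from -0.03 to 0.15. Counts per gene do not show which exons were used, and the splicing of Cdh23 was not analysed here. Vsir lies within the body of Cdh23, sharing no exon base with it, on the other strand, and Psap, with a mean of 149400 counts, ends 147 bases from Cdh23 on the other strand. Whether the counting used the strand is not given in the sources used here.

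Fscn2 (ENSMUSG00000025380; chromosome 11, 120251983 to 120258994, plus strand) was a low count gene. B6 replicates 1 to 5 had 37.6, 37.2, 36.7, 18.2 and 17.5 normalized counts, and D2 replicates 1 to 5 had 28.4, 20.5, 22.7, 18.8 and 33.7. All D2 values lay within the range of B6. The log2 fold change was -0.25 with a standard error of 0.277 (edgeR adjusted p = 0.628). Fscn1, the fascin of neurons and other cells, had 21790 ± 2080 (SD, n = 5) normalized counts in B6 and 20200 ± 894 in D2 and was not called (log2 fold change -0.11, and -0.02 without B6 replicates 3 and 5), while Fscn3, the fascin of testis, had at most 3 counts in any library. Of the 19 listed genes of actin bundling, all in the table, 1 was higher and 4 lower in D2, a share of 26.3% beside 18.3% of all genes, and 4 were called without B6 replicates 3 and 5. Eps8, which caps and bundles actin in stereocilia and synapses, was higher by 0.45 on the log2 scale (standard error 0.0646, edgeR adjusted p = 2.9e-04). The lower genes were Lcp1, an actin bundler of immune cells, Triobp and Eps8l2, both known for hearing, and Actn2. Lcp1 fell by 0.47, Triobp by 0.37 and Eps8l2 by 0.33 on the log2 scale, the last with an adjusted p of 0.0734 in edgeR without B6 replicates 3 and 5.

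Cdh23 works in the stereocilia with the partners of the tip link and the other proteins of Usher syndrome. Of 20 genes listed for these 19 were in the table. In D2, 7 were higher and 1 lower, a share of 42.1% beside 18.3% of all genes, and the median log2 fold change was 0.15. Without B6 replicates 3 and 5 the count was 10. The gene that was lower was Myo7a, the motor at the upper end of the tip link (ENSMUSG00000030761; chromosome 7, 97699069 to 97768734). It had 2564 to 2886 normalized counts in B6 and 188 to 316 in D2, a 12.0-fold lower level (log2 fold change -3.58, standard error 0.133, edgeR adjusted p = 1.6e-09). Ush1c, the scaffold protein harmonin that binds both Cdh23 and Myo7a, went the other way, with 14.4 to 38.5 in B6 and 109 to 254 in D2, a 5.97-fold higher level (standard error 0.293 on the log2 scale, edgeR adjusted p = 3.7e-05). Neither gene overlapped between the strains. Cib2 and Lhfpl5, subunits of the transduction channel complex, were higher by 0.35 and 0.56 on the log2 scale, and Lhfpl5 by 0.41 without B6 replicates 3 and 5. Pcdh15, which pairs with Cdh23 to form the tip link, had 3756 ± 820 (SD, n = 5) normalized counts in B6 and 4634 ± 417 in D2, and was not called (edgeR adjusted p = 0.119). Its log2 fold change was 0.30 with all mice and 0.12 without B6 replicates 3 and 5 (edgeR adjusted p = 0.418), while with the cortical marker level as a covariate it was 0.42 and passed. The hair cell markers Ocm, Pou4f3 and Gfi1 were under a mean of 10 counts. The 7 hair cell markers, a list that also holds Myo7a, summed to 9172 to 22134 in B6 and 8207 to 12881 in D2. The low B6 sums were those of replicates 3 and 5 (9172 and 9555), and the other B6 mice had 20313 to 22134. Otof added most to these sums. It had 6235 and 6496 normalized counts in this pair, 17687 to 19278 in the other B6 mice and 7780 to 12554 in D2.

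**Figure D4:**
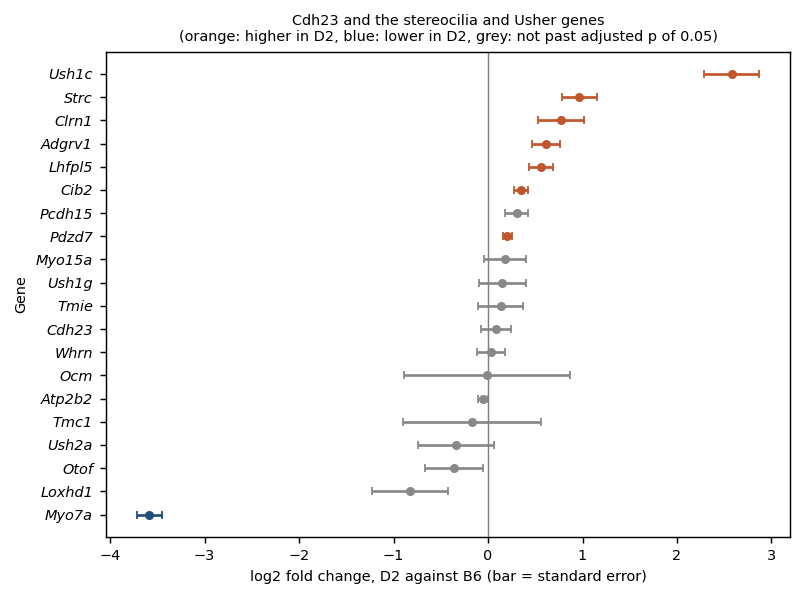
Log2 fold change, D2 over B6 (x axis, bars of 1 standard error, 5 mice per strain) for Cdh23 and the 19 stereocilia and Usher genes in the table, with genes higher in D2 in orange, lower in blue and not called in grey. Cdh23 sits near 0 at 0.08, between Myo7a at -3.58 and Ush1c at 2.58.

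Hc (ENSMUSG00000026874) lies on chromosome 2 from 34873343 to 34951453, on the minus strand. B6 replicates 1 to 5 had 29.9, 35.2, 28.7, 63.1 and 26.7 normalized counts. D2 replicates 1 to 5 had 54.1, 71.3, 52.9, 103 and 81.6. D2 mice were above 4 of the 5 B6 mice, and B6 replicate 4 lay among the D2 values. B6 mice averaged 36.7 ± 15.1 (SD, n = 5) and D2 mice 72.7 ± 21.0 (SD, n = 5), a 1.98-fold higher level in D2 (log2 fold change 0.98, standard error 0.267, edgeR adjusted p = 0.021; two-sided exact permutation test, p = 0.0238). The raw reads behind it were few, with 175 in all B6 and 378 in all D2 mice. The call was lost without B6 replicate 3 (adjusted p = 0.0515), without B6 replicate 5 (0.0526) and without D2 replicate 4 (0.0585), where the log2 fold changes were 0.90, 0.88 and 0.82. Without both B6 replicates 3 and 5 it was 0.77 (edgeR adjusted p = 0.0928). The counts came from a transcript that, in D2, carries the deletion, and they do not measure C5 protein.

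The complement genes around Hc showed the highest share of calls among the 6 lists. Of 37 listed genes 34 were in the table, with 12 lower in D2, 4 higher and 18 not called, a share of 47.1% beside 18.3% of all genes, where 9.83% were lower. The median log2 fold change was -0.12, beside 0.00 for all genes, and 14 were called without B6 replicates 3 and 5. Both receptors of C5a, the fragment released from C5, were lower in D2. C5ar1 (chromosome 7, 15980668 to 15993465) had 38.6, 44.5, 56.2, 49.2 and 62.7 normalized counts in B6 replicates 1 to 5 and 17.4, 20.5, 6.61, 21.6 and 15.3 in D2 replicates 1 to 5. C5ar2, its neighbor on the same strand (15968503 to 15978121), had 83.9, 76.5, 87.1, 89.8 and 72.0 in B6 and 9.17, 15.6, 15.1, 18.8 and 6.12 in D2. For both genes each D2 mouse was below each B6 mouse. The level of C5ar1 was 3.06-fold lower (standard error 0.265 on the log2 scale, edgeR adjusted p = 7.7e-04), and that of C5ar2 was 6.24-fold lower (standard error 0.234, adjusted p = 3.8e-06). No alternative or left out mouse changed either call.

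**Figure D5:**
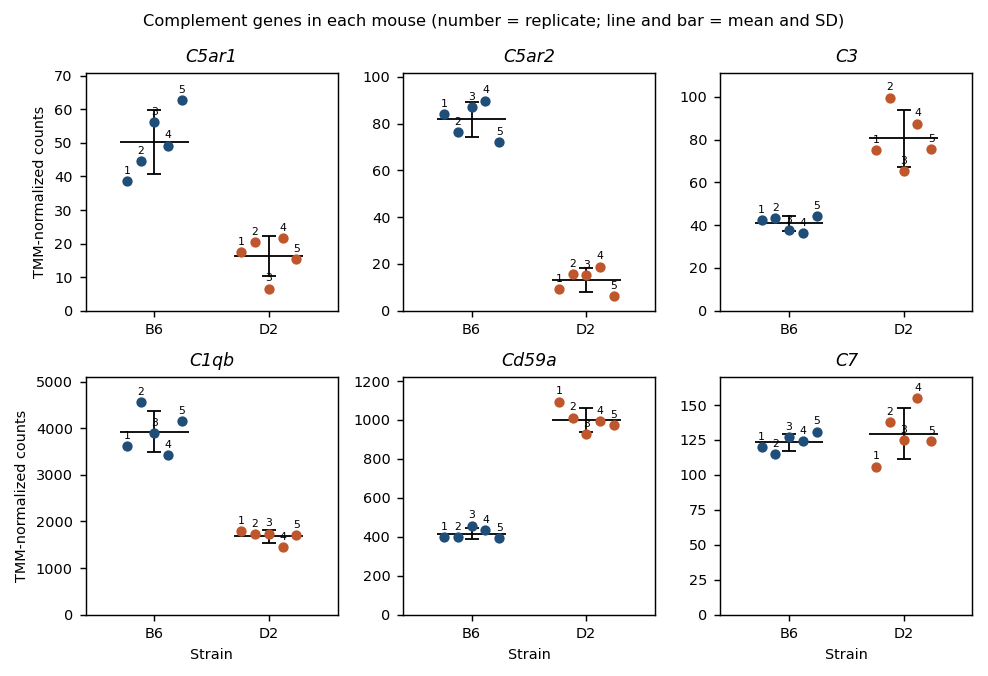
TMM-normalized counts (y axis, from 0) of the complement genes C5ar1, C5ar2, C3, C1qb, Cd59a and C7 in 5 B6 (blue) and 5 D2 (orange) mice, with points numbered by replicate, lines at the mean and bars of 1 SD. C5ar1, C5ar2 and C1qb are lower and C3 and Cd59a higher in every D2 mouse than in every B6 mouse, while C7 overlaps.

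At the start of the classical pathway, the C1q chains made by microglia were lower in D2. C1qb fell from 3933 ± 449 to 1684 ± 140 normalized counts (SD, n = 5 each; log2 fold change -1.22, standard error 0.0808, edgeR adjusted p = 2.5e-07), C1qc fell by 1.18 and C1qa by 0.44 on the log2 scale. The microglia markers given above overlapped between the strains, with 1 of 8 called higher and 1 called lower. The genes higher in D2 were C3, C4b, Cd59a and Mbl2. C3, the central component, had 40.9 ± 3.54 (SD, n = 5) normalized counts in B6 and 80.6 ± 13.2 in D2 (log2 fold change 0.98, standard error 0.148, edgeR adjusted p = 4.1e-04). Cd59a, the membrane inhibitor of the final attack complex, rose 2.41-fold from 416 ± 27.7 to 1000.3 ± 61.2 normalized counts (SD, n = 5 each). Mbl2, a lectin that starts the lectin pathway, had 0 to 8.55 normalized counts in B6 and 34.7 to 69.6 in D2. Masp2, a protease that acts after the lectins of this pathway, went the other way, with 158 ± 22.9 (SD, n = 5) normalized counts in B6 mice and 39.2 ± 7.80 in D2 mice, a 4.03-fold lower level (log2 fold change -2.01, standard error 0.156, edgeR adjusted p = 1.1e-06). Of the late components that join C5 in the attack complex, C7 had 123 ± 6.24 and 130 ± 18.1 (SD, n = 5) and was not called. C8g had 73.6 ± 8.99 in B6 and 74.7 ± 12.0 in D2 (SD, n = 5 each) and was not called. C8a and C8b, with means of 4.0 and 7.3 raw counts, were not called either, and C6 and C9 were not in the table.

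Among themselves the 6 genes spanned a wide range of levels. On a scale of counts per kilobase of exon and per megacount of depth, Myo5a stood at 41.2 ± 5.70 in B6 and 35.8 ± 1.63 in D2 (SD, n = 5 each), at the 97.7th percentile of all genes. The order of the levels per length in B6 was Myo5a, Gpnmb (0.348 ± 0.180), Cdh23 (0.133 ± 0.0247), Fscn2 (0.110 ± 0.0395), Hc (0.0523 ± 0.0215) and Tyrp1 (0.0132 ± 0.0097). Cdh23 and Fscn2 overlapped between mice, as did Fscn2 and Hc. In D2 the levels per length of Cdh23 (0.141 ± 0.0296), Hc (0.103 ± 0.0299) and Fscn2 (0.0924 ± 0.0228) overlapped, and Gpnmb stood below them at 0.0245 ± 0.00966, with Tyrp1 (0.00559 ± 0.00934) overlapping Gpnmb. The members other than Myo5a were below the 40th percentile, from 7.55 for Tyrp1 to 39.6 for Gpnmb.

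The other genes at the same places in the genome were compared in the same fit. Of the 243 genes within 1 Mb of a member, 16 were higher and 16 lower in D2, a share of 13.2% beside 18.3% of all genes. Near Gpnmb 12 of 46 genes were called (26.1%), near Myo5a 5 of 30 (16.7%), near Hc 4 of 36 (11.1%), near Fscn2 9 of 83 (10.8%), near Cdh23 2 of 44 (4.55%) and near Tyrp1 0 of 4. The nearest protein-coding genes were not called for any member in edgeR. On both sides of Gpnmb these were Tmem176a and Malsu1. Tmem176a ends 189421 bases before Gpnmb (log2 fold change 0.06, standard error 0.104). Malsu1 starts 2866 bases after Gpnmb and differed by less than 0.01 on the log2 scale. Within 0.5 Mb of Gpnmb, 10 of 31 genes were called, 5 higher and 5 lower in D2, a share of 32.3% beside 18.3% of all genes. Beside Hc, Traf1 differed by 0.08 (standard error 0.223) and AI182371 by -0.19 (standard error 0.226) on the log2 scale.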

How the data were processed

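Poly-A RNA of the NAc was sequenced from 5 B6 and 5 D2 mice. After trimming with fastp, the authors aligned the libraries of both strains with STAR 2.7.10b to GRCm39, the B6 genome, and used SAMtools 1.6 for sorting and featureCounts for counting. The file deposited by the authors holds raw counts without normalization, and every gene in it has a median over the mice above 0. Reads with D2 alleles may align less often, which was not tested. The deposited median, mean and number of samples under 1 per gene were other columns by the authors and were not used.

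Counts were fitted here in R 4.3.3 by the two-sided quasi-likelihood F test of edgeR 4.0.16 with TMM factors and strain as the only term. The p-values of all 29883 genes were adjusted together (Benjamini-Hochberg) and called under 0.05. Standard errors are the absolute log2 fold change over the square root of F. For each of the 6 genes an unadjusted two-sided exact permutation test was run on log2 normalized counts plus 0.5. Symbols, positions and exon lengths came from GENCODE M39 on GRCm39, which held 29519 of the genes. The fits were tested on simulated data. Other steps used Python 3.11.15 with pandas 2.3.3, numpy 2.4.6 and matplotlib 3.10.9.

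The members and lists were chosen with earlier results of these data known, and the lists were written from general knowledge. Named genes were the members and their closest relatives and partners. Up to 4 genes per list were added, those with the smallest adjusted p among called genes averaging 100 counts or more. Further ones were the nearest protein-coding neighbors, not all of which are printed, and the 3 genes most like each member averaging 100 counts or more. Clec7a, Lpl, Actn2, C4b, C8a, C8b, C8g, Mbl2, Masp2, Otof and Vsir were named after their values were seen. Alternatives were DESeq2 1.42.0, its size factors, total counts, upper-quartile factors, filterByExpr, a threshold of 0.01, the replicate number as a block, other windows and each mouse left out. Leaving out B6 replicates 3 and 5 together and the cortical marker level as a covariate were added after seeing the data. The p-values set the strain difference against the spread among the mice within each strain, whatever the source of that spread. No pair of libraries of the same strain differed by less than sampling noise, which alone gives a mean chi-square of about 1 per gene. The lowest value was 4.89, for B6 replicates 3 and 5. All other pairs within a strain lay between 17.5 and 119, so these 2 libraries were the most alike.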

Additional observations from a re-analysis of the deposited data

Results flagged for a closer look

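A sample far from the others of its strain was looked for in 82 groups of 5 mice, for the 6 members and the named genes of the lists, and 3 were found, where chance alone flags about 1 group in 20. For Hc, B6 replicate 4 had 63.1 normalized counts, and its gap to the next B6 mouse was 0.768 of the range of the strain, against a critical value of 0.71. For C1qb, D2 replicate 4 had 1441 normalized counts, the lowest of the strain, with a ratio of 0.766. For Fscn3, D2 replicate 2 had 0.977 normalized counts and the other D2 mice had 0.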

How the results depend on the processing

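Gpnmb stayed lower in D2 and past the threshold under every alternative run, between -4.08 and -3.57 on the log2 scale with each mouse left out. Hc kept its direction but was not past a threshold of 0.01 at its value of 0.98. It was also not called without both B6 replicates 3 and 5, at 0.77. With each mouse left out it lay between 0.82 and 1.27, and 3 of these 10 fits lost the call. Its adjusted p was 0.0029 in DESeq2. In edgeR it was 0.0052 with the replicate block and 0.0097 with the cortical marker level as a covariate, at 1.06. Myo5a passed with the cortical marker level as a covariate, at -0.25, and in no other alternative. Cdh23 changed direction with single mice left out, between -0.032 and 0.152, as did Mitf (-0.034 to 0.058) and Tyr (-0.19 to 0.13). Tyr was at 0.026 with the covariate and Myo5c at 0.21 without both B6 replicates 3 and 5, where the main values were of the opposite sign. At a threshold of 0.01 the calls were 3415 over all genes, 2 among pigment genes, 4 among phagocyte genes, 3 among actin genes and 21 among neighbors. Without both B6 replicates 3 and 5, 3 pigment genes were called, beside 5745 over all genes, and with single mice left out 2 to 4 pigment genes. With the covariate 11 of the myosin Va partners and 56 neighbors were called, while the calls over all genes rose from 5478 to 7841. Within 2 Mb 49 neighbors were called in the main fit. Total counts put 45.0% of called genes lower in D2, against 53.6% with TMM factors. Among the named genes that were not called, Pcdh15 (0.42), Myo5c (-0.36) and Fscn1 (-0.15) passed with the covariate, and Pcdh15 also with the replicate block (0.32), while without both B6 replicates 3 and 5 Pcdh15 was at 0.12 and Fscn1 at -0.02. Hps4 was lost with total counts (-0.12) and with the block (-0.15), and Ednrb with filterByExpr (0.40). Tyrp1 had no value under filterByExpr. No cause of these changes was tested.

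The replicate numbers were shared by the strains without a stated pairing. Deviations of mice with the same number correlated between -0.415 and 0.371 over 15388 genes, so the numbers were not taken as pairs. With the replicate number as a block, 4731 genes were called over the table, Gpnmb was at -3.73, Hc at 1.00 and Myo5a at -0.19, and no call of a member changed. The low counts of Tyrp1, Fscn2 and Hc limit what can be seen for these genes.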
